A study of Mus musculus with 30 samples.

Results

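Messenger RNA levels of the translation initiation and elongation factors were followed in mouse liver after exposure to cadmium chloride in the womb. The factors were taken as every gene whose symbol begins with Eif or Eef followed by a digit, leaving out the kinases of eIF2 and the X- and Y-linked genes of its gamma subunit. This rule gave 56 genes among 14555 in any table, of which 55 were listed at each age and 54 at every age. Eif5a2 was listed at PND1 and PND21 but not at PND42, and the processed pseudogene Eif4a-ps4 at PND42 alone. All mice were CD-1, an outbred stock, and PND is the postnatal day. The groups were 4 exposed and 4 control females at PND1, 3 and 3 females at PND21, 4 and 4 females at PND42, and 4 and 4 males at PND42. Exposed mice had received cadmium chloride at 500 ppb during gestation, and controls had not. The labels name no litters, so the p values below measure the spread between these libraries. The labels' animal tags open with a number and letter that differ between all samples of each of the 8 groups but recur across groups. Of these codes 1 is shared by exposed and 2 by control females and males at PND42. Between PND21 and PND1 females 1 is shared by controls and 2 by exposed. Codes also recur between PND42 females and the younger females. What this code stands for is not stated, and no model below has a term for it.

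Protein synthesis starts when the small ribosomal subunit, carrying the initiator tRNA bound to eIF2, is brought to the capped end of an mRNA by eIF4F and eIF3. It then scans for a start codon, where eIF1 and eIF1A keep the search accurate, and eIF5 and eIF5B close the step. During elongation eEF1A delivers each aminoacyl-tRNA, the eEF1B subunits reload eEF1A with GTP, and eEF2 moves the ribosome on by a codon. The mRNAs of eEF1A, eEF1B, eEF2 and some eIF3 and eIF4 subunits belong to the 5′-terminal oligopyrimidine (TOP) class, whose translation is held under the control of mTORC1 together with that of the ribosomal proteins. Liver secretes most plasma proteins and carries a heavy load of translation, and the demand changes between birth and weaning.

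Values are normalised read counts per gene, the authors' reads divided by a size factor of the library. Read totals ran from 22 to 40.1 M per library. All 7 hepatocyte markers examined were listed at each age, and Alb was at 847178 to 1718657 normalised counts in exposed and 2264382 to 3220267 in control PND42 females. At PND42 the exposed females stood apart from the control females in measures of the RNA as a whole. Mitochondrially encoded genes took 22.2 to 35.5% of reads in exposed and 5.25 to 12.8% in control females. The mean log2 level of Malat1 and Neat1, RNAs that stay in the nucleus, was 15.51 to 15.91 in exposed and 13.04 to 14.46 in control females. The summed level of the hepatocyte markers was 1204863 to 2252057 in exposed and 2825101 to 3907031 in control females. Of these 7 markers Apoa1 and Hnf4a overlapped between the groups, and the others, Alb included, were lower in exposed females without overlap. That of 5 cholangiocyte markers was 358 to 656 in exposed and 1035 to 2091 in control females. Most of the cholangiocyte sum was Spp1, at 227 to 435 in exposed and 907 to 1877 in control females. Epcam was at 11.2 to 22.1 in exposed and 28.3 to 51.9 in control females. Krt19, Krt7 and Sox9 overlapped between the groups. The sum of 5 stellate cell markers was 8209 to 9709 in exposed and 10822 to 13469 in control females. Dcn was at 3627 to 5463 in exposed and 5765 to 8388 in control females, and Lrat at 221 to 440 and 535 to 852. Col1a1, Col3a1 and Reln overlapped between the groups. The sum of 5 endothelial markers overlapped, at 5956 to 6245 in exposed and 5858 to 6617 in control females. Of these Stab2 was higher in exposed females, at 3580 to 4014 against 2438 to 2968. Clec4g (828 to 1193 against 1718 to 2253) and Lyve1 (123 to 162 against 170 to 398) were lower in exposed females. Pecam1 and Kdr overlapped. Cela1, the 1 listed marker of 5 for exocrine pancreas, was at 519 to 677 in exposed and 1070 to 1676 in control females. The skeletal muscle gene Mylpf was at 1906 in exposed replicate 4 and 113 in exposed replicate 2. It was at 16.5 and 21.4 in exposed replicates 3 and 1, and at 19.4 to 29 in control females. The part of these markers in the results was not tested. In each of the other 3 pairs of groups the mitochondrial share and the nuclear RNA level of exposed and control libraries overlapped. Of the PND42 control libraries, 1 female and 3 males could be tied to a group by column name but to no replicate number, and they are termed unnumbered below. The tag in the female's column name is one that the labels attach to a PND21 control, so that its identity is uncertain.

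Exposed PND42 females carried less mRNA of most translation factors than control females. Of the 55 factors tested, 38 fell and 3 rose past an adjusted p of 0.05, in limma with Benjamini-Hochberg adjustment over 13091 genes. Among all genes, 21.4% were called lower and 18.9% higher. The median log2 fold change was -0.78 for the factors and 0.00 for all genes tested. In 36 factors every exposed library lay below every control library, which 23.5% of all genes did, and in 3 every exposed library lay above, as in 22.3% of all genes. These levels are from whole liver, where fewer cells of a type and less RNA per cell cannot be told apart. Scaling by nuclear-gene reads (all reads except those of mitochondrially encoded genes) raised the median of all genes to 0.39. Under it 25 factors were called lower and 4 higher, beside 11.2% and 32.5% of all genes, and 39 of 55 had a lower mean in exposed females.

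The calls in PND42 females were lost when the RNA measures entered the model. With the mitochondrial share of each library as a covariate over the 16 PND42 libraries, 0 of the 55 factors passed, and the count over all genes was 47, against 5269 without it. At an unadjusted p under 0.05 the count of factors was then 10, beside 13.2% of all genes. With the Malat1 and Neat1 level as the covariate 0 factors passed adjustment, 14 passed unadjusted, beside 15.9% of all genes, and 232 genes were called in all. The factors' median log2 fold change at an equal covariate level was -0.31 with the first and -0.32 with the second. This fitted value was below 0 for 42 and 40 of the 55 factors. Since exposure and these measures did not overlap among PND42 females, their parts in the fall cannot be told apart there.

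**Figure D1:**
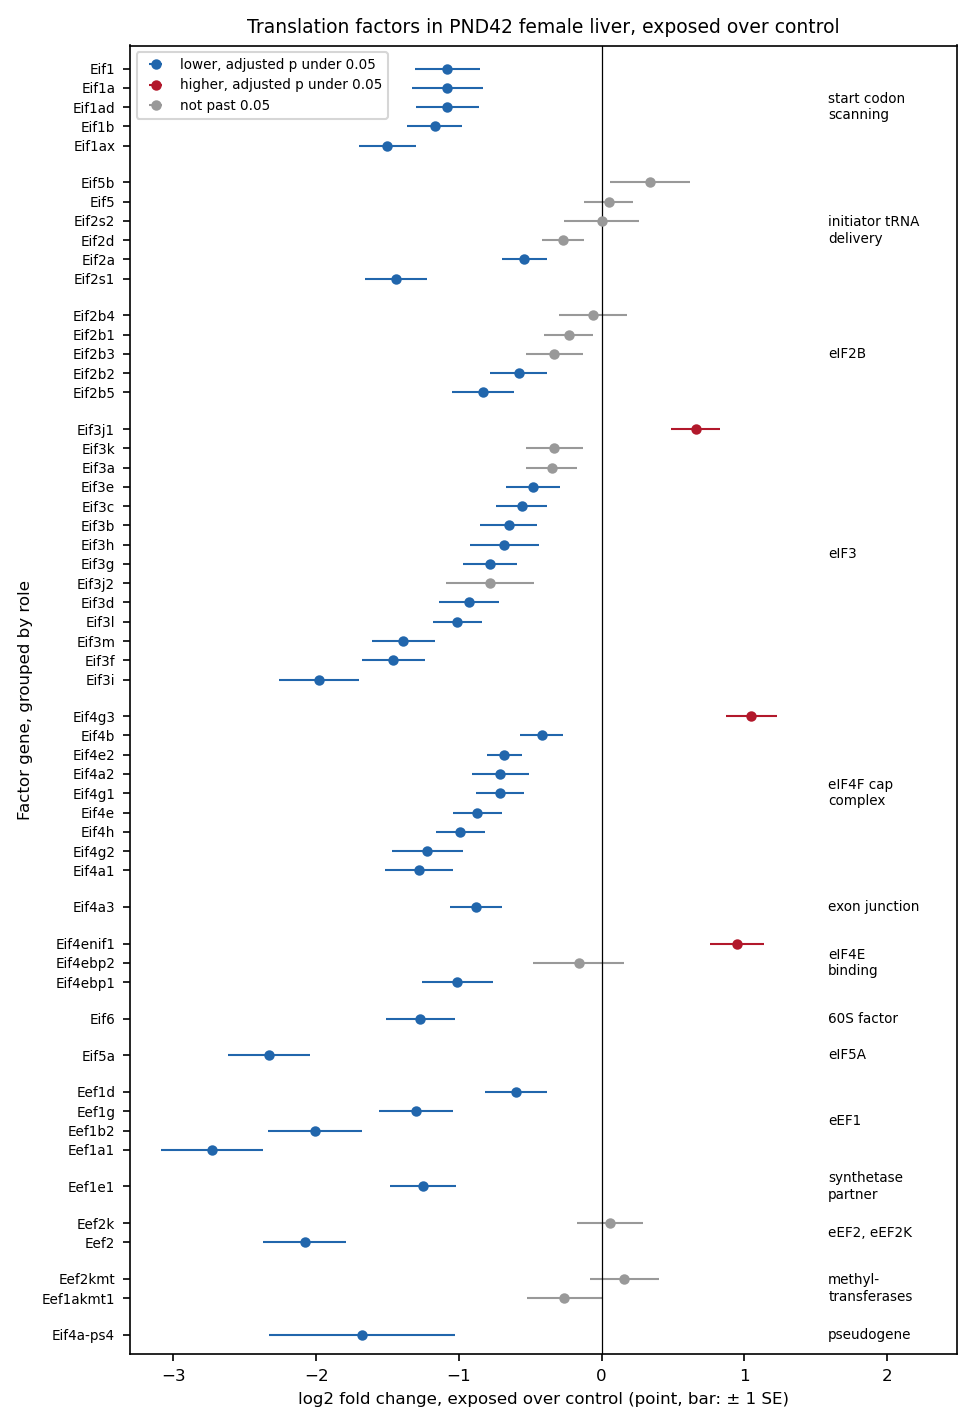
The log2 fold change of each of the 55 factors in PND42 female liver, exposed over control, with 1 standard error to each side, grouped by role. The 38 blue points lie left of 0 and the 3 red points right of it, with Eef1a1 farthest left at -2.73 and Eif4g3 farthest right at 1.05.

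Elongation factors were among the largest falls. Eef1a1 encodes eEF1A1, the main carrier of aminoacyl-tRNA in liver. Its normalised count was 7072, 7013, 5855 and 9289 in exposed PND42 females, against 43668, 71405, 41566 and 40342 in control females. The groups did not overlap, and the means were 7307 ± 1435 and 49245 ± 14837 (SD, n = 4 each). The log2 fold change was -2.73 ± 0.36 (SE, adjusted p = 4.01e-05 in limma), and with the mitochondrial share as covariate it was -1.11 ± 0.43 (adjusted p = 0.273). Eef1a1 has processed copies in the genome, and how reads shared with them were counted is not stated.

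Eef1b2 and Eef1g encode subunits of the eEF1B exchange factor. Eef1b2 was at 1352, 1297, 1382 and 1879 normalised counts in exposed females and at 6372, 5500, 6200 and 5543 in control females. Its log2 fold change was -2.01 ± 0.33 (adjusted p = 0.00023, limma). Every exposed library of Eef1b2 was thus far under the lowest control. Eef1g fell by 1.30 ± 0.26 and Eef1d, another exchange subunit, by 0.60 ± 0.22 on the log2 scale. Eef1e1, the eEF1-like scaffold of the multisynthetase complex, fell by 1.25 ± 0.23.

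Eef2 encodes the translocase that moves the ribosome. It was at 6309, 5047, 5578 and 7236 normalised counts in exposed and at 23958, 33328, 21898 and 23302 in control females, with a log2 fold change of -2.08 ± 0.29 (adjusted p = 5.23e-05, limma). All exposed libraries were below all controls. Eef2k, the kinase that inhibits eEF2, was at 372 ± 87.4 in exposed and 352 ± 50.5 in control females (SD, n = 4 each), and its log2 fold change of 0.06 ± 0.23 did not pass the test.

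Eif5a encodes the hypusine-bearing factor that helps peptide bonds form at difficult sequences. It was at 1585, 1322, 1439 and 1956 normalised counts in exposed and at 6999, 8778, 7747 and 7877 in control PND42 females. The groups were far apart, and the log2 fold change was -2.33 ± 0.29, with the lowest adjusted p among the factors (2.94e-05, limma).

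**Figure D2:**
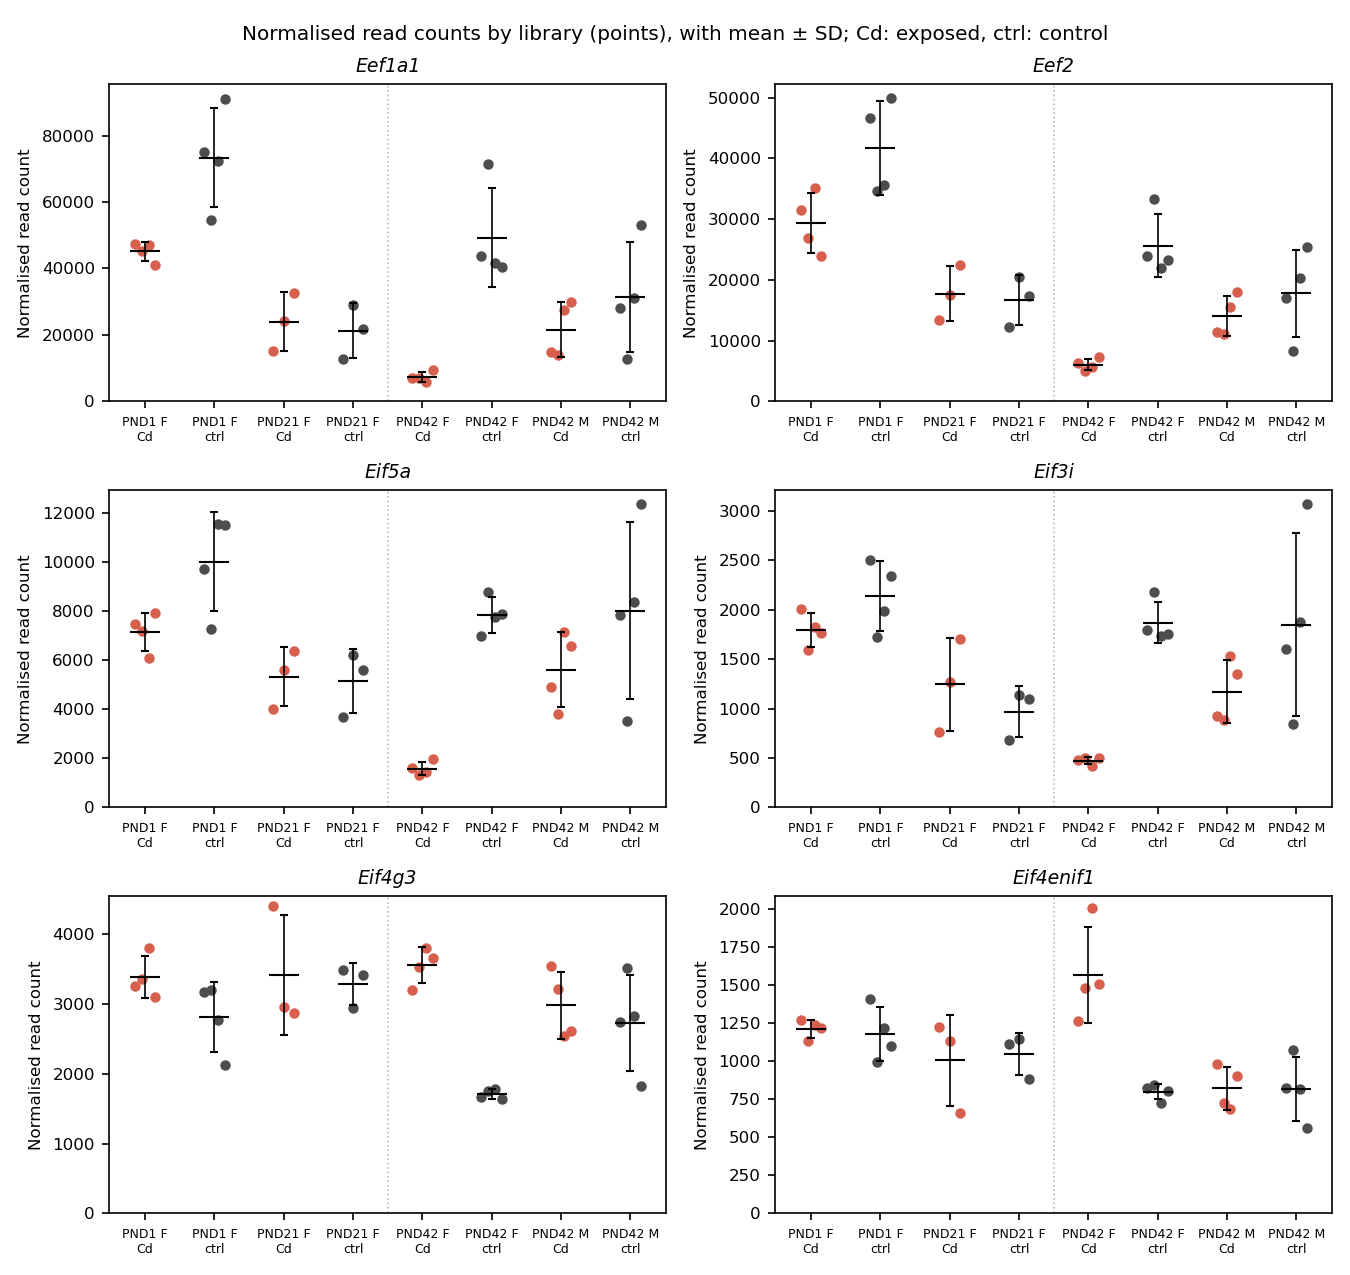
Normalised read counts of 6 factors in each of the 30 libraries, by group (Cd, exposed; ctrl, control), with the mean and SD of the group as bars. The dotted line separates tables that the authors scaled apart, so levels are comparable only on 1 side of it; the 4 exposed PND42 females sit lowest for Eef1a1, Eef2, Eif5a and Eif3i on their side and between 3203 and 3806 for Eif4g3, above the control females.

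In the start-codon scanning group, which took in every gene whose symbol begins with Eif1, all 5 genes fell. Eif1ax, the X-linked gene of eIF1A, was at 440, 379, 324 and 480 in exposed and at 1166, 1264, 1090 and 1049 in control females, a log2 fold change of -1.50 ± 0.20 (adjusted p = 4.94e-05, limma). The exposed values of Eif1ax all lay under the lowest control. Eif1, Eif1a, Eif1ad and Eif1b had log2 fold changes of -1.08 to -1.17. In Eif1a the groups overlapped, since exposed replicate 4 was at 1258 and the lowest control at 1154.

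Among the genes that bring the initiator tRNA, 2 of 6 fell. Eif2s1, the alpha subunit of eIF2 that stress kinases phosphorylate, had a log2 fold change of -1.44 ± 0.22 and averaged 462 ± 48.1 normalised counts in exposed and 1292 ± 358 in control females (SD, n = 4 each). Eif2a, an alternative carrier of initiator tRNA, fell by 0.54 ± 0.16. Eif2s2, the beta subunit of the same eIF2 complex as Eif2s1, was at 2672 ± 402 in exposed and 2710 ± 691 in control females, with a log2 fold change of 0.00 ± 0.26. Eif5, Eif5b and Eif2d did not pass either. Of the 5 subunits of eIF2B, which reloads eIF2 with GTP, Eif2b5 (-0.83 ± 0.22), the catalytic subunit, and Eif2b2 (-0.58 ± 0.20) fell, and the other 3 did not pass.

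The eIF3 genes, which encode the scaffold that recruits the small subunit, had 10 of 14 lower and 1 higher. Eif3i was at 476, 496, 419 and 500 normalised counts in exposed and at 1799, 2178, 1738 and 1755 in control females, a log2 fold change of -1.98 ± 0.28 (adjusted p = 6.56e-05, limma). The spread within the exposed Eif3i values was small beside the gap between the groups. Eif3f fell by 1.46 ± 0.22 and Eif3m by 1.39 ± 0.22. Eif3a, the largest eIF3 subunit, had -0.35 ± 0.18 and Eif3k -0.33 ± 0.20, and neither passed. Eif3j1, a loosely bound subunit, was at 777, 704, 881 and 806 in exposed and at 535, 506, 524 and 444 in control females and rose by 0.66 ± 0.17 (adjusted p = 0.00624, limma). Its paralog Eif3j2 had -0.78 ± 0.31 and did not pass (adjusted p = 0.0509), and reads may be split between these near copies. Eif3j1 also shares 1107 exonic bases with Spg11 on the opposite strand, and no source used here states whether the counting used strand.

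The eIF4F complex recognises the cap and unwinds the leader. Its group, which also took in helpers and relatives such as Eif4e2 and Eif4g2, had 8 of 9 lower. Eif4a1, the RNA helicase, fell by 1.28 ± 0.24, Eif4e, the cap-binding protein, by 0.87 ± 0.17, and Eif4g1, the scaffold, by 0.71 ± 0.17. Eif4g3, a second scaffold gene, ran the other way. It was at 3203, 3535, 3806 and 3661 normalised counts in exposed and at 1664, 1747, 1787 and 1639 in control females, with no overlap and a log2 fold change of 1.05 ± 0.18 (adjusted p = 0.000283, limma).

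The proteins that bind eIF4E divided. Eif4ebp1, the mTORC1-controlled repressor of cap binding, fell by 1.01 ± 0.25, and its relative Eif4ebp2 had -0.16 ± 0.32 and did not pass. Eif4enif1, which carries eIF4E into the nucleus and into processing bodies, was at 1265, 1481, 2007 and 1505 in exposed and at 825, 839, 725 and 806 in control females. It rose by 0.95 ± 0.19 (adjusted p = 0.000918, limma), and every exposed library was above every control library. Eif6, which keeps the large subunit from joining too early, fell by 1.27 ± 0.24. Eif4a3, of the exon junction complex, fell by 0.88 ± 0.18. The 2 methyltransferase genes, Eef1akmt1 and Eef2kmt, did not pass. The pseudogene Eif4a-ps4 was called at -1.68 ± 0.65 from 7.98 to 21.3 normalised counts in exposed and 13.8 to 75.1 in control females, and its call was lost under several settings given in the closing section.

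The 9 factors reported as TOP mRNAs in the literature (Eef1a1, Eef1b2, Eef1d, Eef1g, Eef2, Eif3e, Eif3f, Eif3h and Eif4b) all fell in exposed PND42 females, with a median log2 fold change of -1.30. The 46 others had 29 lower and 3 higher and a median of -0.74. Under nuclear-read scaling 5 of the 9 were called lower and the median was -0.92. With the mitochondrial share as covariate their median was -0.29, against -0.31 for the others, and 0 of the 9 passed. The 76 ribosomal protein genes of the same class had 50 lower, 0 higher and a median of -0.94.

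The start-site stretches of 5 factors are printed to show runs of C and T near annotated starts in RefSeq's promoter table. That table is on build GRCm38.p6 and held 43 of the 56 factors. Each runs 5′ to 3′ on the strand of the gene, from 50 bases before the annotated start through the first 30 bases of the transcript. Capitals mark a tract, defined as a C that opens a run of at least 6 C or T and starts within 20 bases of the annotated start, the longest one where there are several. Eef1a1, Eef2 and Eif3f are reported TOP factors with a tract by this definition, Eef1b2 is one without, and Eif4g3 is the factor that rose most.
Eef1a1, chr9:78481695-78481774, minus strand: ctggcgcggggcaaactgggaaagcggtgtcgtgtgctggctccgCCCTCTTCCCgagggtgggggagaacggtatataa
Eef2, chr10:81176581-81176660, plus strand: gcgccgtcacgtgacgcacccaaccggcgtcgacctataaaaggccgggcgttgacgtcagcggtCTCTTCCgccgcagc
Eif3f, chr7:108934365-108934444, plus strand: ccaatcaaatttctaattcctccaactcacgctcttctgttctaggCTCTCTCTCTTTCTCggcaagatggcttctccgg
Eef1b2, chr1:63176781-63176860, plus strand: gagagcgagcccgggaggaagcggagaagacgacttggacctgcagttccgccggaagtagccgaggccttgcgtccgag
Eif4g3, chr4:137993405-137993484, plus strand: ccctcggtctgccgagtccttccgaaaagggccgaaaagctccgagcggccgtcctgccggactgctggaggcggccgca
In Eef1a1 the tract starts 5 bases before the annotated start, and the stretch ends in tatataa, letters like a TATA box. Whether the capitals of Eef1a1 are part of its mRNA was not tested. In Eef2 the tract starts 15 bases after the annotated start, and tataaa, also letters like a TATA box, lies before that start. In Eif3f the tract starts 4 bases before the annotated start. Eif3f holds another run of 7 that meets the definition, 19 bases before the start, left in lower case. Only the coding strand was searched. A tract was found for 14 of the 43 factors (32.6%), close to the 34.8% of all 27025 genes in that table. Of the 14 factors, 12 were called lower in exposed PND42 females, with a median log2 fold change of -0.94. Of the 28 tested factors without one, 16 were called lower, with a median of -0.60. Among all genes tested, with or without a tract, 21.4% were called lower, and their share by tract was not computed. Whether a tract goes with the fall was not tested. Annotated starts can lie away from the starts used in liver, and a match is only a description of the letters.

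Among the factors with under 5 kb of intron the median log2 fold change in PND42 females was -1.17 and 12 of 15 fell, beside -0.30 and 29.5% of all genes in that class. At 5 to 10 kb the median was -0.86 and 9 of 12 fell, beside -0.20 and 26.8% of all genes. At 10 to 20 kb it was -0.99 and 11 of 13 fell, beside -0.16 and 26.5% of all genes. At 20 to 40 kb it was -0.42 and 5 of 10 fell, beside -0.05 and 23.9% of all genes. Over 40 kb the 5 factors had a median of 0.06, beside 0.41 for all genes. Eif4g3, at chr4:137993022-138208508, has 204.42 kb of intron, the most of any factor, and Eif4enif1, at chr11:3202392-3244588, has 35.83 kb, while Eef2, at chr10:81176631-81182498, has 2.54 kb and Eif1 0.11 kb (GENCODE vM21). Across the 55 factors the Spearman correlation of the fold change with intron length was 0.53, and across 13071 genes it was 0.34, both given as descriptions of genes that share the same libraries. In PND42 males, where 0 factors were called, it was 0.48 across the factors and 0.21 across the 13071 genes.

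In PND42 males the same exposure gave no call among the 55 factors, and 0% of all genes passed. At an unadjusted p under 0.05 there were 2 factors, Eif1b (-0.45 ± 0.19) and Eif1ad (-0.47 ± 0.22), beside 7.12% of all genes (limma, adjusted p = 0.622 for both). The unadjusted count rested on 1 library: without control unnumbered A, 26 factors passed unadjusted, beside 24.4% of all genes. The count after adjustment stayed at 0. The median log2 fold change was -0.22 for the factors and -0.03 for all genes, and 45 of 55 had a lower mean in exposed males. Under nuclear-read scaling, which moved the median of all genes to 0.15, that count was 29. Only Eif1a had every exposed male below every control male, beside 0.833% of all genes.

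Control males spread widely. Eef1a1 was at 14872, 14076, 27601 and 29757 normalised counts in exposed males and at 28199, 12806, 31177 and 53006 in control males. The control at 12806, unnumbered A, had a mitochondrial share of 24.8%, the highest of the 4 control males, and the control at 53006, unnumbered C, had 9.03%, the lowest. Over the 8 males the log2 level of Eef1a1 correlated with the mitochondrial share at r = -0.94 (two-sided exact permutation p = 0.00102, adjusted p = 0.00392 over 4 relations) and rho = -0.95 (exact permutation p = 0.00114, adjusted p = 0.00456). Without the 2 libraries farthest from the median share, r was -0.94. With the Malat1 and Neat1 level r was -0.96 (exact permutation p = 0.00196, adjusted p = 0.00392) and rho was -0.76 (exact permutation p = 0.0368, adjusted p = 0.0735), and r was -0.89 without the 2 farthest libraries. Over the 8 PND1 libraries r was -0.46 with the mitochondrial share (exact permutation p = 0.252) and -0.75 with the nuclear RNAs (exact permutation p = 0.0353, adjusted p = 0.0471). The second relation rested on 2 libraries, since r was 0.18 without them. PND42 females fall into separate clusters, so no coefficient was taken over them.

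**Figure D3:**
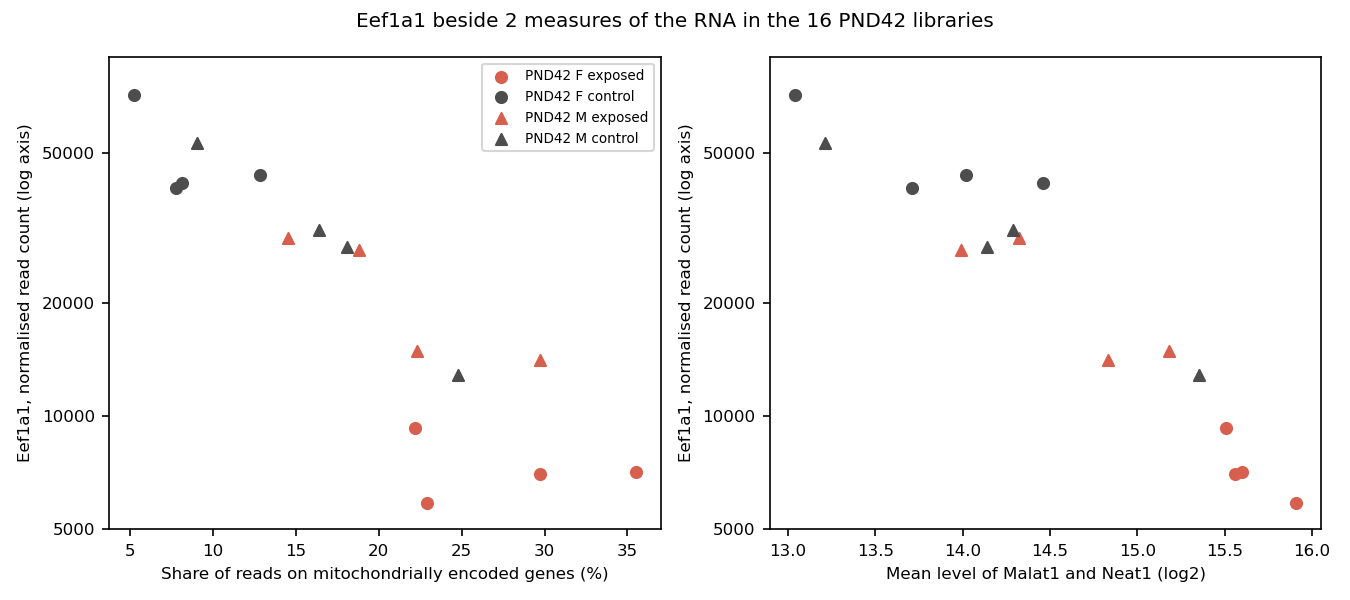
The normalised read count of Eef1a1 (log axis) in the 16 PND42 libraries against the share of reads on mitochondrially encoded genes (left, in %) and the mean log2 level of Malat1 and Neat1 (right). Circles are females and triangles males, red exposed and grey control; the 4 exposed females lie lowest, at 5855 to 9289, and the males of both groups form a falling band.

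The difference between the sexes was tested as an interaction. The exposure effect was lower in females than in males for 12 of 55 factors and higher for 2, beside 4.07% and 3.84% of all genes (limma, adjusted over 13091 genes). Eef1a1 had a log2 fold change of -2.73 ± 0.36 in females and -0.45 ± 0.36 in males, a difference of -2.28 ± 0.51 (adjusted p = 0.0145). Eif5a differed by -1.90 ± 0.41, Eef2 by -1.82 ± 0.40, Eef1b2 by -1.64 ± 0.47 and Eif3i by -1.43 ± 0.39. Eif4enif1 and Eif4g3 differed in the other direction, by 0.92 ± 0.27 and 0.90 ± 0.25. The count was unstable: it ranged from 5 to 22 when single libraries were left out, and was 0 with either RNA measure as covariate.

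**Figure D4:**
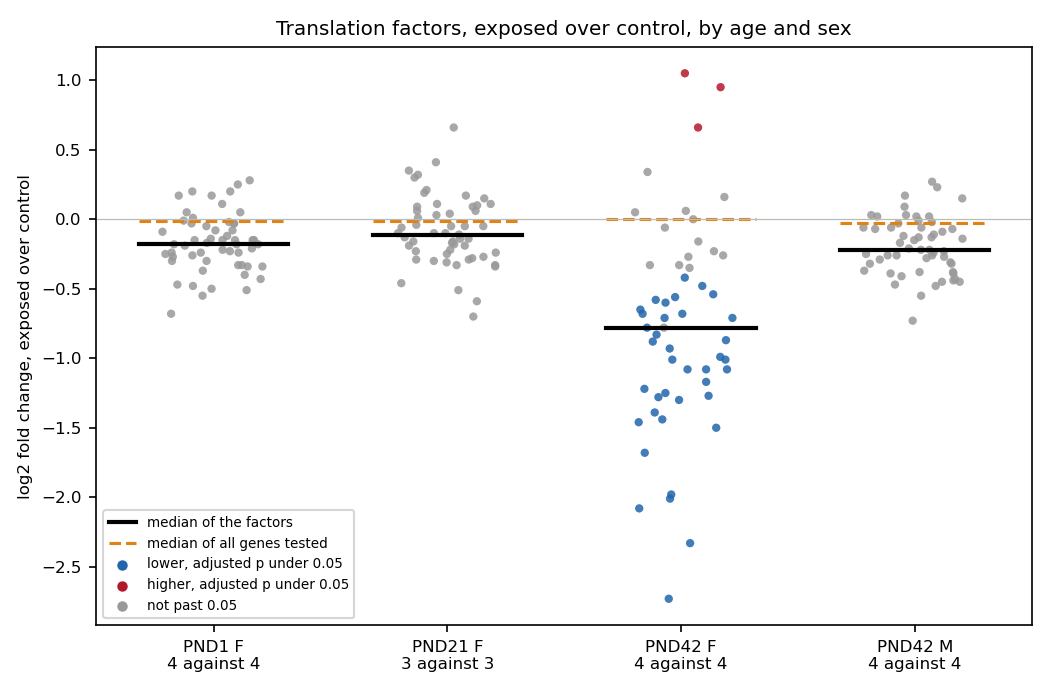
The log2 fold change of each factor, exposed over control, at each age and sex, with the median of the factors (black) and of all genes tested (orange, dashed). The PND42 female median of -0.78 stands below the medians of -0.18, -0.11 and -0.22 in PND1 females, PND21 females and PND42 males, where 0 factors were called.

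At PND1, a day after birth, 0 of 55 factors and 0% of all genes passed adjustment (limma). At an unadjusted p under 0.05 there were 13 factors, all lower in exposed females, beside 14.5% of all genes. The mean was lower in exposed females in 45 of 55 factors, with a median log2 fold change of -0.18 beside -0.01 for all genes, and in 36 of 55 under nuclear-read scaling. In 7 factors every exposed library lay below every control, beside 4.82% of all genes. The lowest p was that of Eif4ebp1, at 664, 782, 844 and 778 normalised counts in exposed and 1016, 1069, 1013 and 1289 in control newborns (log2 fold change -0.51 ± 0.12, adjusted p = 0.244). Eef1a1 followed, at 47232, 45211, 47099 and 40945 in exposed and 75141, 54719, 72282 and 91090 in control newborns (-0.68 ± 0.17, adjusted p = 0.244). Both genes had groups that did not overlap, and neither passed adjustment. Eif3m (-0.48 ± 0.14), Eef1b2 (-0.40 ± 0.12), Eif1a (-0.55 ± 0.18) and Eif2b1 (-0.43 ± 0.14) came next. The TOP factors had 8 of 9 lower means and a median of -0.33. Without control replicate 2, 27 factors passed unadjusted, beside 22.9% of all genes, and 0 after adjustment. That library had 6015 normalised counts of the skeletal muscle gene Mylpf, against 72.6 to 95.2 in the other controls. Its summed mesothelial marker level was 837, against 547 in control replicate 4 and 56.7 and 66.9 in control replicates 1 and 3. The sum of 5 endothelial markers was 8606 to 9744 in exposed and 6756 to 7680 in control newborns. Of these markers only Stab2 was apart, at 4948 to 5313 in exposed and 2956 to 3748 in control newborns. Pecam1, Kdr, Lyve1 and Clec4g overlapped, and the part of these markers in the factor levels was not tested. Of the 49 factors with an adjusted p at PND1 in the authors' deposited table, 0 were under 0.05, and the lowest was that of Eif4b (log2 fold change -0.35, adjusted p = 0.0573).

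At PND21, around weaning, 0 of the 54 factors tested passed, beside 0.036% of all genes. Eif5a2 was too low to test. At an unadjusted p under 0.05 there were 4 factors, beside 9.57% of all genes. Eef2k was at 172, 217 and 203 normalised counts in exposed and at 333, 343 and 289 in control females (log2 fold change -0.70 ± 0.20, adjusted p = 0.400, limma). The other 3 were Eif2b3 (-0.59 ± 0.23), Eif2b1 (-0.51 ± 0.22) and Eef1akmt1 (0.66 ± 0.27). Eif3k (-0.46 ± 0.22) and Eif1b (-0.33 ± 0.21) came next by p. Exposed and control values did not overlap in 2 factors that were lower and 2 that were higher, beside 8.62% and 7.99% of all genes. The direction of the factors as a group turned with the scaling: 35 of 54 had lower means in exposed females under the authors' scaling, 14 by total reads and 11 by nuclear reads, and the median of all genes was -0.01, 0.23 and 0.27 in that order. Eef1a1 was at 15050, 24317 and 32645 in exposed and at 12718, 29135 and 21837 in control females, and the groups overlapped. The difference between the exposure effects at PND21 and PND1 passed for 0 of 55 factors (0.014% of all genes) and reached an unadjusted p under 0.05 for 6 (9.07% of all genes).

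Translation factors differed between weanling and newborn control liver. Between PND21 and PND1 controls, which the authors scaled together, 23 of 55 factors were lower at PND21 and 6 higher (limma), beside 26.9% and 26% of all genes. The PND21 values lay below all PND1 values in 21 factors and above in 7, beside 27.9% and 27.4% of all genes. By total reads, which moved the median of all genes to -0.50, 39 factors were lower and 0 higher, beside 46.3% and 12.1% of all genes, and by nuclear reads, at -0.46, also 39 and 0, beside 44.5% and 13%. Blood cell markers moved with age in the same libraries. The summed level of 8 erythroid markers was 28836 to 87220 at PND21 and 233220 to 382635 at PND1, and that of 5 neutrophil markers 206 to 330 at PND21 and 34063 to 40494 at PND1. Platelet markers summed to 367 to 544 at PND21 and 4810 to 6777 at PND1, and B cell markers, which did not overlap either, were at 91.9 in the lowest PND21 and 1350 in the lowest PND1 library. Hepatocyte markers summed to 2169343 to 4621223 at PND21 and 1174284 to 2050991 at PND1. Newborn liver still makes blood, and the part of these cells in the factor levels was not tested.

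Of the 4 eEF1 genes 3 were lower at PND21, as were Eef2, both eIF5A genes and Eif6. Eef1b2 was at 3977, 4111 and 3850 normalised counts in PND21 controls and at 17197, 15985, 16059 and 16948 in PND1 controls, a log2 fold change of -2.06 ± 0.15 (adjusted p = 2.84e-06, limma). The libraries of each age lay close together. Eef1a1 was at 12718, 29135 and 21837 at PND21 and at 75141, 54719, 72282 and 91090 at PND1 (-1.85 ± 0.30). Eef1g (-1.40 ± 0.15), Eef2 (-1.33 ± 0.24), Eef2k (-1.29 ± 0.17), Eif6 (-1.80 ± 0.25) and Eif3i (-1.16 ± 0.21) were also lower at PND21. Eif5a2, the second eIF5A gene, was at 0, 5.32 and 8.31 at PND21 and at 48.2, 26.2, 54.5 and 59.1 at PND1. Its fitted log2 fold change was -3.56 ± 0.74 with a pseudocount of 1 and -2.15 ± 0.36 with 8, and it was -2.58 ± 0.49 without the PND21 library at 0. Eef1d did not share the fall of its partners, at 0.01 ± 0.15 (adjusted p = 0.947), although by total reads all 4 eEF1 genes were called lower.

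The 6 factors that were higher at PND21 were Eif5b (0.77 ± 0.19), Eif3j1 (0.75 ± 0.22), Eif2b1 (0.63 ± 0.19), Eef2kmt (0.63 ± 0.16), Eif2b3 (0.58 ± 0.15) and Eif2d (0.50 ± 0.17). Eif5b, the GTPase that joins the subunits, was at 12951, 9067 and 11365 normalised counts in PND21 controls and 7085, 6470, 7043 and 5371 in PND1 controls. None of the 6 passed under scaling by total or nuclear reads, where Eif5b had 0.26 ± 0.18 and 0.30 ± 0.20. Eif2d changed sign by total reads, to -0.01 ± 0.16.

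**Figure D5:**
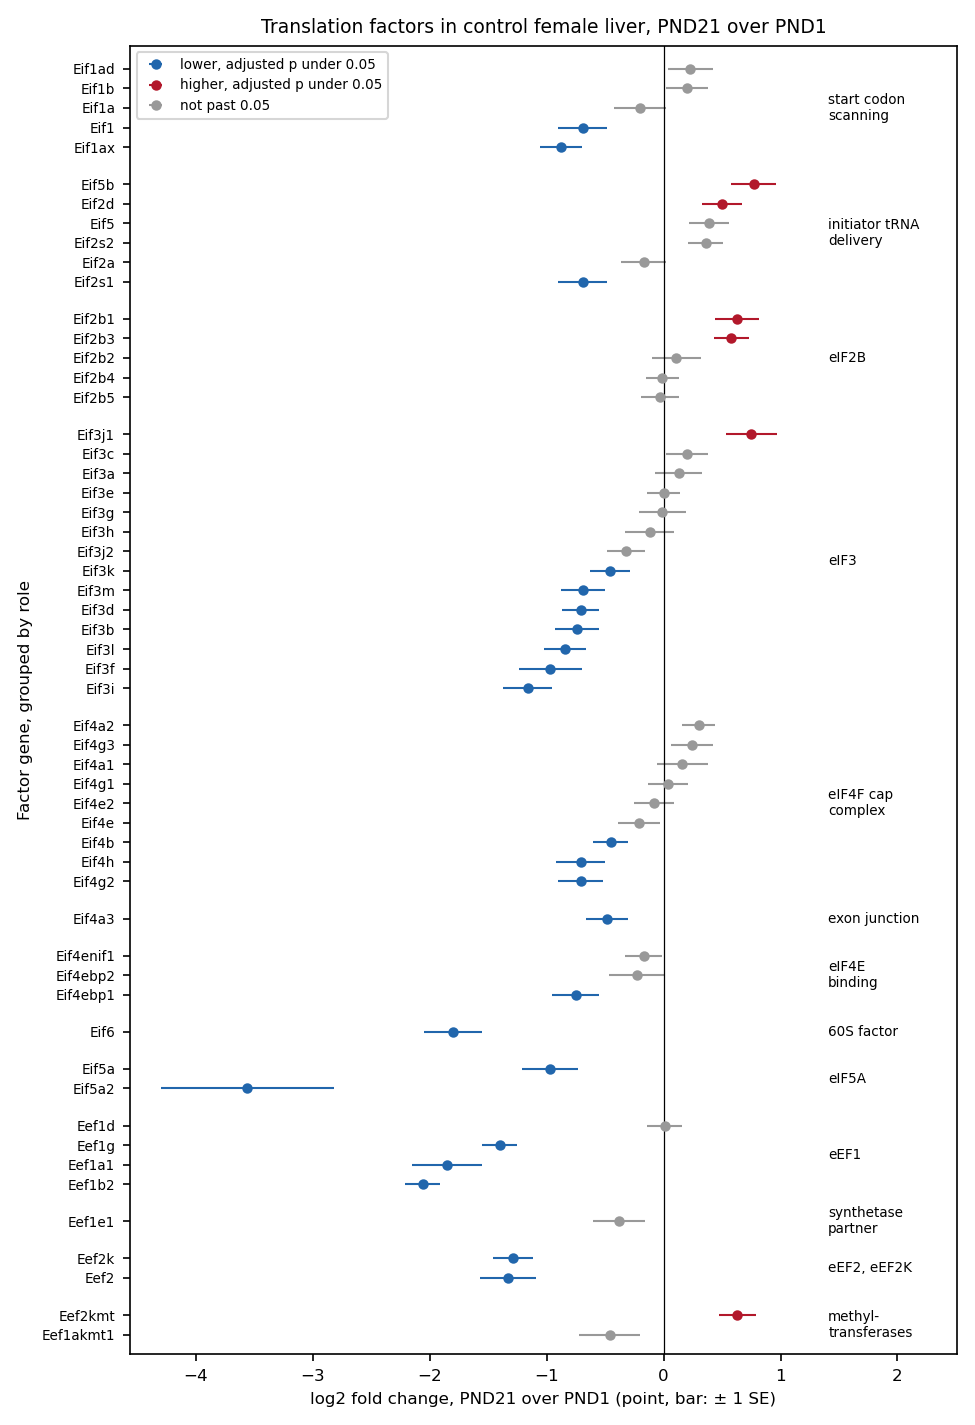
The log2 fold change of each of the 55 factors in control female liver, PND21 over PND1, with 1 standard error to each side, grouped by role. Eif5a2 lies farthest left at -3.56 with the widest error, the eEF1 genes Eef1b2, Eef1a1 and Eef1g lie between -2.06 and -1.40, and the 6 red points run from 0.50 to 0.77.

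Of the 54 factors tested in both comparisons, 37 fell with exposure in PND42 females and 22 were lower at PND21 than at PND1, and 20 were in both lists, which is 54.1% of the first and 90.9% of the second. Over all 12785 genes tested in both, the shared lower calls were 26.1% of the first and 25.3% of the second. These comparisons share no library column, but the unnumbered PND42 control female carries the animal tag that the labels give to a PND21 control. The leading code of another PND42 control female also recurs among the PND21 controls. Whether the comparisons share animals is thus uncertain, and the difference from all genes was not tested. Of the 6 factors that were higher at PND21, 0 fell in exposed PND42 females and 5 were not called there, while Eif3j1 was higher in both. Eef2k and Eif3k were lower at PND21 and not called in exposed PND42 females.

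Levels were compared between factors per kilobase of exon. Eef1a1 was the most abundant factor in each of the 8 groups, at 2931 ± 576 normalised counts per kb in exposed and 19753 ± 5951 in control PND42 females (SD, n = 4 each), followed by Eef2 at 1818 ± 286 in exposed and 7708 ± 1567 in control females. In control PND42 females Eif5a came next at 3303 ± 307 and then Eif1 at 3244 ± 422, which do not differ beyond their spread. In exposed females Eif1, Eif5 and Eif3h held the next places. The pair Eef1a1 and Eef2 made up 14% of the summed factor counts in exposed and 35.6% in control PND42 females. The summed level of all factors was 90075 to 102013 normalised counts in exposed and 188745 to 251475 in control PND42 females. It took 0.348 ± 0.0447% of reads in exposed and 0.738 ± 0.114% in control females (SD, n = 4 each), and 0.478 ± 0.0219% of nuclear-gene reads in exposed and 0.805 ± 0.102% in control females. In males it was 152288 to 184929 in exposed and 131818 to 266630 in controls, and the ranges overlapped.

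Of 47 other genes of the pathway that were tested, 6 were higher and 15 lower in exposed PND42 females, beside 18.9% and 21.4% of all genes, with a median log2 fold change of -0.07. The split turned with the scaling, to 14 higher and 7 lower by nuclear reads, beside 32.5% and 11.2% of all genes. Their median was then 0.32, beside 0.39 for all genes. With the mitochondrial share as covariate 0 passed. Values that follow are under the authors' scaling. The scanning and recycling genes had 4 of 5 lower: Denr (-0.98 ± 0.21), Dhx29 (-0.83 ± 0.20), Ddx3x (-0.82 ± 0.21) and Abce1 (-0.82 ± 0.20), the last of which splits ribosomes after termination. The release factors Gspt1 (-1.04 ± 0.20) and Etf1 (-0.90 ± 0.18) fell. Paip2b, a repressor of the poly(A)-binding protein, fell by 2.03 ± 0.39. In the mTORC1 list 4 of 15 rose: Rptor (0.83 ± 0.12), which presents substrates to mTORC1, the S6 kinases Rps6kb2 (0.89 ± 0.14) and Rps6kb1 (0.45 ± 0.14), and Tsc1 (0.72 ± 0.20), an inhibitor of the pathway. In the same list 3 fell: Rps6 (-2.24 ± 0.29), the ribosomal substrate of these kinases, Mlst8 (-0.67 ± 0.18), a core subunit of mTORC1, and Rheb (-0.62 ± 0.19), its activator. Among 6 eIF2 kinase and gamma-subunit genes only Eif2ak2 passed, at 0.41 ± 0.15. Of the eIF2 phosphatase and stress target genes, Ppp1r15b (-0.89 ± 0.22) and Atf5 (-1.02 ± 0.37) fell and 4 did not pass. At PND1, at PND21 and in PND42 males 0 of these genes passed. Between PND21 and PND1 controls 12 were higher and 13 lower, shares near the 26% and 26.9% of all genes, with Asns, the asparagine synthetase induced by amino acid shortage, at -5.23 ± 0.36 and Deptor, an mTOR inhibitor, at 1.71 ± 0.28.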

How the data were processed

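The 30 libraries are single-end RNA-seq of mouse liver. The submitters' processing notes name FastQC, STAR, featureCounts and the build mm10. Versions and the strand setting are not stated there. The authors' deposited values are log2 of the read count divided by a size factor of the library, plus 1. Dividing each library by its smallest step gave whole reads within 0.1 for 100% of values. The deposited mean column (a signal of normalised counts) equals the mean over all libraries scaled together, PND1 with PND21 and PND42 apart. The deposited p values and adjusted p values (p-value columns) and log2 fold changes at PND1 and PND21 are the authors' own and were used only where attributed to them.

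The factors and gene lists were chosen with earlier results of these data known. The deposited log2 values were fitted with limma 3.58.1 in R 4.3.3 (intensity trend, robust empirical Bayes; statmod 1.5.0). A gene was tested where a number of libraries no smaller than the smallest group reached 10 normalised counts. Tests were two-sided, with Benjamini-Hochberg adjustment over every gene in the fit and a threshold of 0.05. PND42 contrasts shared a fit of 4 groups. The planned count models were not used because the deposited values are log2, and limma voom on the recovered reads was added in their place. Models with a covariate for the mitochondrial share or for Malat1 and Neat1, and the correlations of Eef1a1, were added after the data were seen. Named factors were the 8 highest and 8 lowest fold changes among those called, or the 6 of lowest p where fewer than 6 were called, together with a set of factors named for their level; members of the pathway lists, the leading TOP factors and the factors on which calls turn are named beside them, some after their values were seen. Positions and lengths are from GENCODE vM21 on GRCm38, promoters from RefSeq. The fits were tested on simulated data. A planned permutation test of the summed level is not given, since the factors were chosen with results known. Replicate numbers did not pair animals. Read totals of 22 to 40.1 M leave counting error small for all factors but Eif5a2 and Eif4a-ps4.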

Additional observations from a re-analysis of the deposited data

Results flagged for a closer look

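The effect of exposure at PND42 differed between females and males for 14 factors (interaction in limma, adjusted p under 0.05), with these differences of log2 fold change, females minus males: -2.28 for Eef1a1, -1.90 for Eif5a, -1.82 for Eef2, -1.64 for Eef1b2, -1.43 for Eif3i, -1.31 for Eif2s1, -1.28 for Eef1e1, -1.21 for Eif6, -1.11 for Eif3m, -1.10 for Eif1ax, -1.07 for Eif3f and -1.01 for Eif4h, and 0.92 for Eif4enif1 and 0.90 for Eif4g3. The mitochondrial share and the Malat1 and Neat1 level differed with exposure in the same females, and 0 of the 14 passed with either as a covariate.

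A library far from the other 3 of its group was found in 14 of 204 tests of Dixon's ratio (the gap to the nearest library over the whole range) at its 95% critical value, and chance gives about 1 in 20. Among PND1 controls, replicate 2 was low for Eef2k (610, others 829 to 881, ratio 0.836), Eif1ax (1095, others 1473 to 1548, 0.856) and Eif3f (2452, others 3320 to 3434, 0.90), and replicate 1 was low for Eef1akmt1 (123, others 183 to 192, 0.892). Among exposed PND42 females, replicate 4 was high for Eif1a (1258, others 660 to 703, 0.901) and replicate 2 low for Eif3k (755, others 1055 to 1109, 0.871). Among control PND42 females, replicate 3 was high for Eef1a1 (71405, others 40342 to 43668, 0.861) and Eif3i (2178, others 1738 to 1799, 0.846), replicate 4 low for Eif3m (1531, others 1884 to 1946, 0.864) and the unnumbered library low for Eef1g (3113, others 3336 to 3368, 0.88). Among exposed PND42 males, replicate 4 was low for Eif1a (1046, others 1298 to 1312, 0.953) and replicate 3 high for Eef1e1 (644, others 459 to 473, 0.91). Among control PND42 males, unnumbered A was low for Eif3m (1073, others 1824 to 1986, 0.862) and high for Eef2k (366, others 237 to 238, 0.988).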

How the results depend on the processing

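The count of 41 factors called in exposed PND42 females was 29 to 42 under other scalings, filters, pseudocounts, fits and limma voom, and 0 with the mitochondrial share or the Malat1 and Neat1 level as a covariate. Leaving out single libraries gave 35 to 40. The sex difference, 14 factors, gave 8 with neither trend nor robust fitting, 0 with either covariate, and 5 to 22 without single libraries. It was 22 without control male unnumbered C and 5 without exposed male 3, exposed female 3 or control male 1. The PND21 to PND1 contrast, 29 factors, gave 22 to 28 without single libraries. The counts of 0 at PND1, at PND21, in PND42 males and for the difference between PND21 and PND1 stayed at 0 under every alternative run. Eif4a-ps4 in exposed PND42 females turned to 0.24 with the Malat1 and Neat1 covariate, lost its call by total reads (adjusted p = 0.0571), by nuclear reads (adjusted p = 0.101), under voom (adjusted p = 0.0502), with the replicate block and with the mitochondrial share (adjusted p = 0.935). Eif2d, PND21 over PND1, turned to -0.01 by total reads. The cause of these shifts was not tested.

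Same-numbered libraries of exposed and control groups correlated at -0.08 to 0.23 in their deviations, so the numbers were not taken as pairs. With the replicate block 0 factors were called at PND1, 0 at PND21 and 36 in PND42 females. For males, no paired analysis was possible because their groups share fewer than 2 numbers. The planned count models were not run because the deposited values are log2.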
